A study of Sus scrofa with 16 samples.

Results

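The expression of 8 genes that mark blood and the vessel lining was followed in the pituitary of 16 pigs: HBB as the marker of red blood cells, and PECAM1, CDH5, KDR, FLT1, TEK, VWF and ENG as markers of endothelial cells. They were found by looking up these symbols in the comparison table that the authors deposited beside their counts. All 8 were found, of 25880 genes in the count table, and all 8 passed the expression filter that left 13621 genes for testing. The members were thus selected on being measured in these pigs, since the table lists the genes that the authors compared between the groups, and the symbols were chosen with results of these data known. FLT1, CDH5 and ENG also stand in gene lists that the authors drew from their own calls on these pigs. The group differences below are therefore a description of the genes and were not used as evidence for anything else.

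Whole pituitaries came from gilts (young females) of Złotnicka White, a native Polish breed, kept under the same feeding and housing at a test station. The labels give day 180 for every pig and a slaughter weight of 100 kg with a tolerance of 2 kg. The paper, however, gives an age at the end of the test that differed between pigs. The 8 LFC pigs had low feed conversion (less feed taken per unit of weight gained) and the 8 HFC pigs had high feed conversion. By the paper's measurements, the HFC pigs of this breed also spent longer in the test, gained less per day and were fatter. Feed conversion, time in the test, growth and fatness thus cannot be told apart in any group difference below. No pig was treated, the pigs were unrelated animals from different farms, and the gland was sequenced with the blood it held.

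Red cells of mammals lose their nucleus but carry globin mRNA for a time after they enter the blood, so globin transcripts in a solid organ usually mark the blood left in its vessels. The anterior pituitary is fed by portal vessels from the hypothalamus, and its hormone cells release into a dense bed of fenestrated capillaries. Endothelial cells hold together through CDH5 and PECAM1, read vascular growth factors through KDR, FLT1 and TEK, respond to TGF-beta family ligands through ENG, and store VWF for release at injury.

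Between 6010629 and 11794256 reads were counted on genes per pig, with 6258650 to 8402619 in the LFC pigs. Expression is given as CPM, the count of a gene relative to library size after edgeR's TMM scaling. Log2 fold changes are HFC over LFC, positive where the HFC pigs were higher. The members had between 79 (CDH5) and 9291 (HBB) counts in a pig. In bulk tissue, fewer cells of a type and less RNA of a gene per cell cannot be told apart. The libraries did not keep the strand, and in RefSeq the span of PECAM1 overlaps MILR1, that of TEK overlaps LOC102166359, that of VWF overlaps ANO2 by 18794 bp and that of ENG overlaps FPGS. HBB lies in a cluster of similar beta-globin genes, between which short reads may be shared.

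HBB, which encodes the beta chain of haemoglobin (ENSSSCG00000014725, Sscrofa11.1 chromosome 9, 4800293 to 4801945), varied the most between pigs of the 8 genes. In the LFC pigs the lowest value was 273 CPM, the median 442 CPM and the highest 1414 CPM. In the HFC pigs the lowest value was 61.9 CPM, the median 181 CPM and the highest 1033 CPM. The groups overlapped: 6 HFC pigs lay below all LFC pigs and 7 lay below the LFC median, while HFC replicate 5 was higher than 7 of the LFC pigs. The mean was 582 ± 383 CPM in the LFC and 281 ± 317 CPM in the HFC pigs (SD, n = 8 each). This gave a log2 fold change of -1.05 (SE 0.51, 95% interval -2.11 to 0.01). The Benjamini-Hochberg adjusted p was 0.433 by edgeR's quasi-likelihood test and 0.410 by DESeq2, so the difference did not pass the threshold of 0.05.

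The size of the HBB difference moved with single pigs. Without LFC replicate 4, the pig with the most HBB, the log2 fold change was -0.71 (edgeR adjusted p = 0.720). Without HFC replicate 5, which held 1033 CPM where the next HFC pig held 352 CPM, it was -1.72 (edgeR adjusted p = 0.0902). Without both pigs, an alternative chosen after seeing the data, it was -1.40 (edgeR adjusted p = 0.165). The sign stayed negative with each of the 16 pigs left out in turn.

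**Figure D1:**
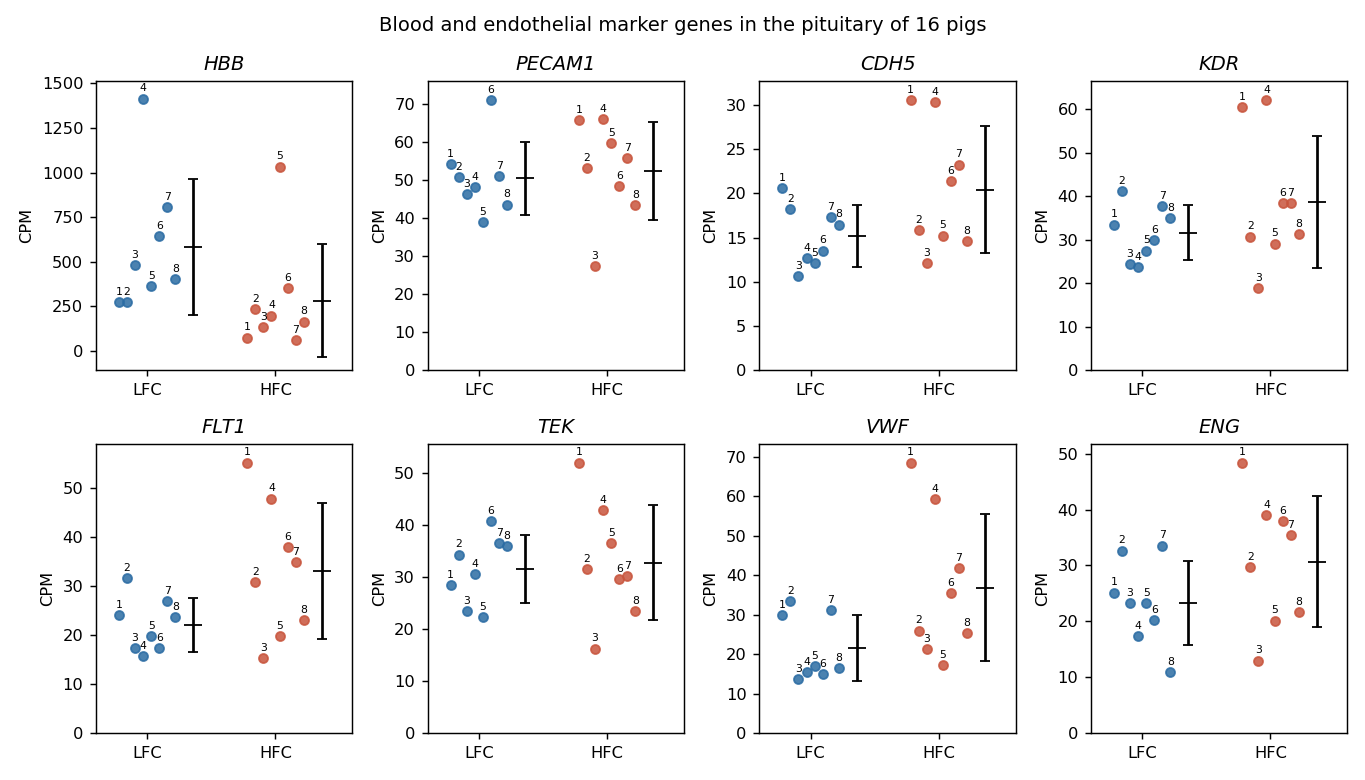
Expression of the 8 marker genes in each pig. The vertical axes give TMM-scaled CPM, each point is 1 pig with its replicate number (LFC blue, HFC red), and black bars give the mean ± SD of 8 pigs. HBB is between 61.9 and 1033 CPM in the HFC pigs and between 273 and 1414 CPM in the LFC pigs, HFC replicates 1 and 4 stand at or near the top for the endothelial genes, and HFC replicate 3 is low for most of them.

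The spread of HBB over the 16 pigs came to a coefficient of variation of 86.6%, with the highest pig at 22.9 times the lowest. Among 431 genes of like mean expression, 98.6% had a lower coefficient of variation. Within the groups it was 65.8% in the LFC and 113% in the HFC pigs. The endothelial genes varied less, with coefficients of variation of 21.4% for PECAM1, 27.5% for TEK, 33.7% for KDR, 34.2% for CDH5, 38.0% for ENG, 42.3% for FLT1 and 55.0% for VWF. That of VWF was above 98.7% of 5740 genes of like mean, and that of PECAM1 above 66.9% of 5087.

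ALAS2, the first enzyme of haem synthesis in red cell precursors, and HBM, the mu-globin gene of the alpha-globin cluster, followed HBB from pig to pig. On log2(CPM + 1) over the 16 pigs, Pearson's r of HBB was 0.94 with ALAS2 and 0.92 with HBM, and Spearman's rho was 0.95 and 0.86. By two-sided permutation with 100000 resamples and Benjamini-Hochberg adjustment over the 10 red cell genes tested, p was 5e-05 for both r, the smallest the resamples and the adjustment gave, and 1e-04 and 2.5e-04 for rho. With the 2 pigs of most extreme HBB (by distance from the median) left out, r was 0.91 with ALAS2 and 0.90 with HBM. Within the LFC pigs r was 0.89 with ALAS2 and 0.98 with HBM, and within the HFC pigs 0.94 and 0.95, so both relations were present in each group.

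Of all 13613 other tested genes, ALAS2 and HBM were also the nearest to HBB in pattern. The next was ENSSSCG00000007978, a gene without a name at chromosome 3, 41482260 to 41487800, between HBQ1 and HBM of the alpha-globin cluster in RefSeq (r = 0.89). Genes with r of at least 0.8 to HBB made up 0.617% of the 13613. Reads on these genes stood to HBB reads in ratios that differed less between pigs than HBB itself: per 1000 HBB reads there were 8.83 to 34.4 ALAS2 reads and 143 to 559 reads of the unnamed gene, neither corrected for gene length.

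ALAS2 was between 3.31 and 17.7 CPM in the LFC pigs, with the top in replicate 7, and between 1.18 and 12.6 CPM in the HFC pigs, with the top again in replicate 5. Its mean was 8.22 ± 4.81 CPM in the LFC and 4.30 ± 3.53 CPM in the HFC pigs (SD, n = 8 each). The log2 fold changes were -0.97 (SE 0.41) for ALAS2, -0.98 (0.38) for the unnamed gene and -0.64 (0.56) for HBM. All 3 had the sign of HBB, and their edgeR adjusted p-values of 0.423, 0.413 and 0.598 did not pass the threshold. HBM rested on 1 to 35 counts a pig.

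**Figure D2:**
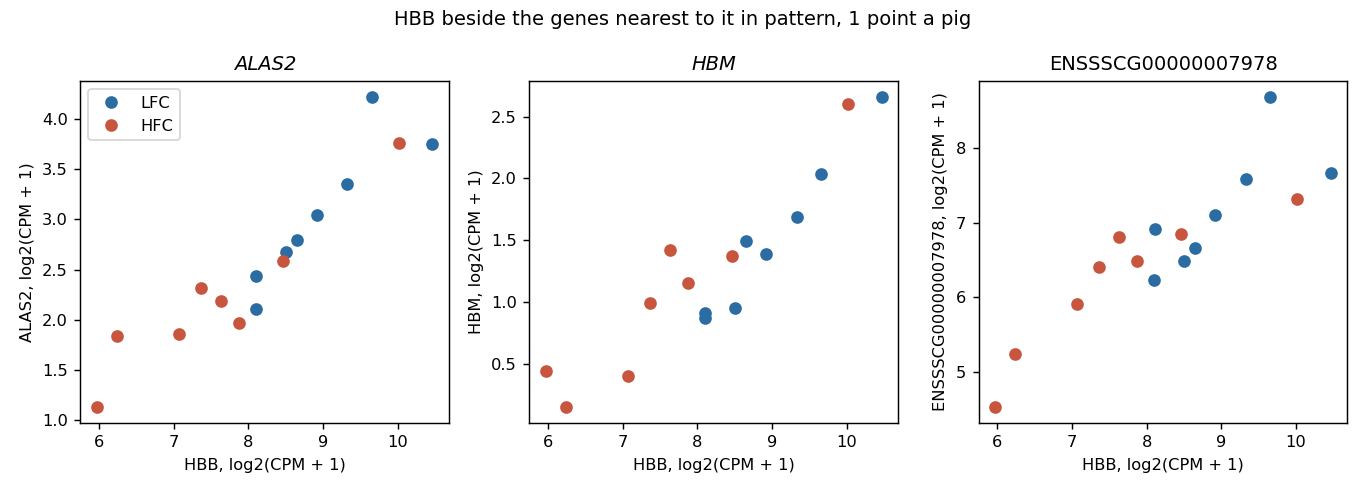
HBB against ALAS2, HBM and ENSSSCG00000007978, the 3 tested genes nearest to it in pattern. Both axes are log2(CPM + 1) and each point is 1 pig (LFC blue, HFC red). Pearson's r is 0.94, 0.92 and 0.89 over the 16 pigs.

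No relation with HBB passed an adjusted p of 0.05 for the other red cell genes. Of 22 listed erythroid genes, 16 were matched and 10 tested. For the 8 besides ALAS2 and HBM the adjusted permutation p was at least 0.28 by Pearson's r and at least 0.083 by Spearman's rho. The smallest by rho was that of GYPC (rho = 0.56), which had rho of 0.24 within the LFC and 0.12 within the HFC pigs. With an unadjusted p up to 0.05, 4 of the 10 were lower in the HFC pigs and 0 higher, beside 4.41% lower and 7.03% higher of all genes tested. The median log2 fold change of the list was -0.15. GYPC (glycophorin C, a red cell membrane protein that other cells also make) had 30.8 ± 7.48 CPM in the LFC and 22.3 ± 3.73 CPM in the HFC pigs (SD, n = 8 each). FECH, which inserts iron into haem, had the highest mean of the list and a log2 fold change of -0.19. TFRC, the transferrin receptor, had 0.21. HBZ and KLF1 had no counts in any pig.

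Other blood cells were sought through 7 tested leukocyte and platelet genes, of which 0 passed an unadjusted p of 0.05 in either direction. The summed expression of all 12 matched genes of the list, with those below the filter, was 85.3 to 128 CPM in the LFC and 105 to 155 CPM in the HFC pigs. ITGA2B, the platelet integrin, was the highest of them at 57.2 ± 12.1 CPM in the LFC and 70.0 ± 13.1 CPM in the HFC pigs (SD, n = 8 each). CD3E of T cells had 1.79 and 1.52 CPM. CD79A of B cells had 24.7 and 28.9 CPM, so ITGA2B and CD79A made up most of the sum. Other genes of the same cell types were close to absent: PPBP of platelets had 0.12 and 0.09 CPM, and MS4A1 of B cells 0.20 CPM in both groups. Whether ITGA2B and CD79A mark blood cells here was not tested.

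Of the 8 marker genes, edgeR called 0 between the groups (adjusted p up to 0.05, fold change from 1.3 up), against 0% of the 13621 genes tested. DESeq2 also called 0 of the 8, against 0.206% of 14549 genes. With DESeq2 at the same thresholds the paper reports far more called genes in this breed, and its lists hold FLT1, CDH5 and ENG. Here their DESeq2 adjusted p was 0.297, 0.378 and 0.486, so the results differ. The cause of this difference was not tested. With an unadjusted p up to 0.05, 3 of the 8 passed, all higher in the HFC pigs, and the background was 11.4% of genes in either direction, 7.03% higher and 4.41% lower in the HFC pigs. Among the 8, 7 had a positive log2 fold change, as had 47.9% of all genes. The median was 0.35 over the 8 genes and 0.40 over the 7 endothelial genes, beside -0.01 over all genes. In each of the 8 genes the values of the groups overlapped, and groups without overlap were found in 0.00734% of all genes.

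**Figure D3:**
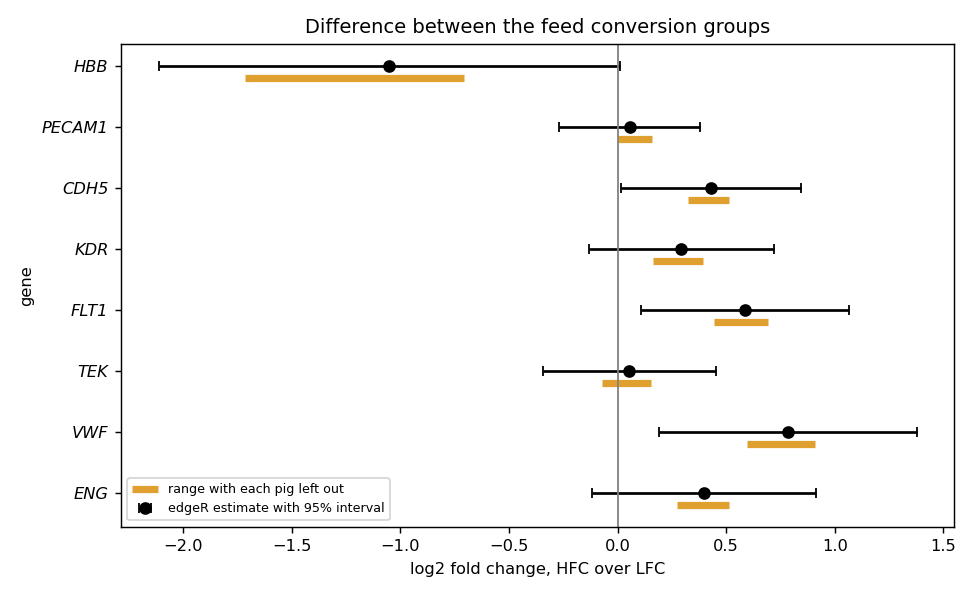
Difference between the feed conversion groups for each marker gene. The horizontal axis is the log2 fold change of HFC over LFC. Points and black bars give edgeR's estimate with its 95% interval, and orange bars span the estimates with each of the 16 pigs left out. VWF is highest at 0.78 and HBB lowest at -1.05, and the orange bars of PECAM1 and TEK reach 0 or below.

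Both junction proteins were measured. CDH5 (VE-cadherin, ENSSSCG00000035772, chromosome 6, 27108499 to 27142921) joins endothelial cells in their adherens junctions. It was 10.6 CPM in the lowest LFC pig, 15.0 CPM at the LFC median and 20.6 CPM in the highest. In the HFC pigs it was 12.1 CPM at the lowest, 18.6 CPM at the median and 30.6 CPM at the highest. HFC replicates 1, 4, 6 and 7 were above all LFC pigs, and the other 4 HFC pigs lay within the LFC range. Means were 15.2 ± 3.47 CPM in the LFC and 20.4 ± 7.18 CPM in the HFC pigs (SD, n = 8 each). The log2 fold change was 0.43 (SE 0.20, edgeR adjusted p = 0.432).

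PECAM1 (CD31, ENSSSCG00000017277, chromosome 12, 14636641 to 14723295) is an adhesion molecule of endothelial cells that platelets and leukocytes also carry. The LFC pigs ranged from 38.9 to 71.1 CPM with a median of 49.5 CPM. In the HFC pigs the range was 27.3 to 66.1 CPM with a median of 54.5 CPM. The highest pig was LFC replicate 6 and the lowest HFC replicate 3, and the other pigs of the groups lay side by side. The log2 fold change was 0.06, with a 95% interval of -0.27 to 0.38, and without HFC replicate 4 it was 0 to 2 decimals.

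Of the growth factor receptors, FLT1 and KDR bind VEGF, KDR being the main signalling receptor and FLT1 often acting as a decoy, and TEK (TIE2) binds the angiopoietins. FLT1 (ENSSSCG00000009320, chromosome 11, 5619970 to 5794957) had 15.7 CPM in the lowest, 21.7 CPM at the median and 31.6 CPM in the highest LFC pig. The HFC pigs had 15.2, 32.8 and 55.2 CPM. HFC replicates 1, 4, 6 and 7 were again above all LFC pigs, and HFC replicate 3 was below them all. Means of 22.0 ± 5.50 CPM (SD, n = 8) and 33.1 ± 13.8 CPM (SD, n = 8) gave a log2 fold change of 0.59 (SE 0.23, edgeR adjusted p = 0.413).

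KDR (ENSSSCG00000008844, chromosome 8, 41809115 to 41856379) ranged from 23.7 to 41.3 CPM in the LFC pigs and from 18.9 to 62.1 CPM in the HFC pigs, with medians of 31.7 and 34.8 CPM. HFC replicates 1 and 4 were above all LFC pigs and HFC replicate 3 was below them. Its log2 fold change was 0.29 (SE 0.20, edgeR adjusted p = 0.521), and it was 0.16 without HFC replicate 4 and 0.17 without HFC replicate 1. TEK (ENSSSCG00000005122, chromosome 1, 195937431 to 196052751) ranged from 22.3 to 40.8 CPM and from 16.2 to 52.0 CPM, with medians of 32.4 and 30.8 CPM. Its log2 fold change was 0.05, with a 95% interval of -0.35 to 0.45, and it turned to -0.07 without HFC replicate 1.

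ENG (endoglin, ENSSSCG00000005625, chromosome 1, 268306120 to 268343936) is a coreceptor for TGF-beta family ligands. The LFC pigs had 10.9 CPM at the lowest, 23.2 CPM at the median and 33.5 CPM at the highest, and the HFC pigs 13.0, 32.5 and 48.4 CPM. HFC replicates 1, 4, 6 and 7 were above all LFC pigs, and the lowest pig was LFC replicate 8. The log2 fold change was 0.40 (SE 0.25, edgeR adjusted p = 0.491).

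VWF (von Willebrand factor, ENSSSCG00000000712, chromosome 5, 64517481 to 64678840) is the adhesive protein that endothelial cells store and that platelets bind at an injury. In the LFC pigs it was 13.7 CPM at the lowest, 16.7 CPM at the median and 33.3 CPM at the highest. In the HFC pigs it was 17.3 CPM, 30.7 CPM and 68.6 CPM. All 8 HFC pigs were above the LFC median, 5 LFC pigs lay below all HFC pigs, and HFC replicates 1, 4, 6 and 7 were above all LFC pigs. Means were 21.4 ± 8.36 CPM (SD, n = 8) and 36.9 ± 18.6 CPM (SD, n = 8). The HFC mean was thus 1.72 times the LFC mean in the fit, or 0.78 on the log2 scale (SE 0.28, edgeR adjusted p = 0.413, DESeq2 adjusted p = 0.253).

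The order of pigs was much the same in several endothelial genes. HFC replicate 1 was the highest of the 16 pigs in 5 of the 7 endothelial genes, and HFC replicate 4 was among the highest 2 in all 7. HFC replicate 3 was the lowest in 4 and among the lowest 2 in 6. Both ends of the range were HFC pigs in KDR, FLT1 and TEK and in the mean of the 7 genes. The lowest pig was an LFC pig in CDH5, VWF and ENG, and the highest was an LFC pig in PECAM1. Without HFC replicate 1 the log2 fold changes of CDH5, FLT1, VWF and ENG were 0.32, 0.44, 0.59 and 0.27, the lowest of all estimates with a pig left out for these genes.

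Correlations of log2(CPM + 1) were tested over the 16 pigs for the 28 pairs of marker genes, by two-sided permutation with 100000 resamples and Benjamini-Hochberg adjustment over the 28. Of 21 endothelial pairs, 17 passed an adjusted p of 0.05 by Pearson's r and 13 by Spearman's rho, with r between 0.38 and 0.93 and a median of 0.75. The pigs share the library of each measurement, so any property of a library that moves many genes enters these values. The share of other gene pairs that would pass the same threshold was not computed. The counts of pairs alone therefore do not set these genes apart from others.

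CDH5, KDR, FLT1 and VWF formed the closest group. Their 6 pairs had r between 0.85 and 0.93 and rho between 0.84 and 0.94, with adjusted permutation p-values of r from 4.67e-05, the smallest that the resamples and the adjustment gave, to 1.6e-04. With the 2 pigs most extreme for the gene listed first above left out, r was 0.67 to 0.86. Within the LFC pigs r was 0.81 to 0.95 and within the HFC pigs 0.91 to 0.97. The difference between the groups in these correlations was not tested. ENG had r of 0.72 to 0.82 with these 4 genes, but 0.24 to 0.68 within the LFC pigs and 0.86 to 0.98 within the HFC pigs.

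PECAM1 and TEK were each nearest to the other among the marker genes, with r = 0.87 and rho = 0.79 (adjusted permutation p of 4.67e-05 and 0.00151). With the 2 pigs of most extreme PECAM1 left out, r was 0.79. Within the LFC pigs r was 0.66, with an exact permutation p of 0.0653. With the other 5 endothelial genes PECAM1 and TEK had r of 0.38 to 0.77, of which 6 of 10 pairs passed by r and 2 by rho. Within the LFC pigs those 10 pairs had a median r of 0.21, and within the HFC pigs 0.80.

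Correlations of HBB with the endothelial genes were near 0 or negative. Its r was 0.07 with both PECAM1 and TEK, -0.38 with ENG, -0.40 with KDR, -0.53 with CDH5, -0.57 with FLT1 and -0.67 with VWF. The relation with VWF (rho = -0.65) passed by both measures, with adjusted permutation p-values of 0.00999 for r and 0.0172 for rho. It was -0.60 with the same 2 pigs of extreme HBB left out. Within the LFC pigs it was -0.39 and within the HFC pigs -0.60, with exact permutation p-values of 0.348 and 0.116, so it did not pass within either group. CDH5 and FLT1 passed by r (adjusted permutation p of 0.0483 and 0.0315) but not by rho (0.110 and 0.0764).

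**Figure D4:**
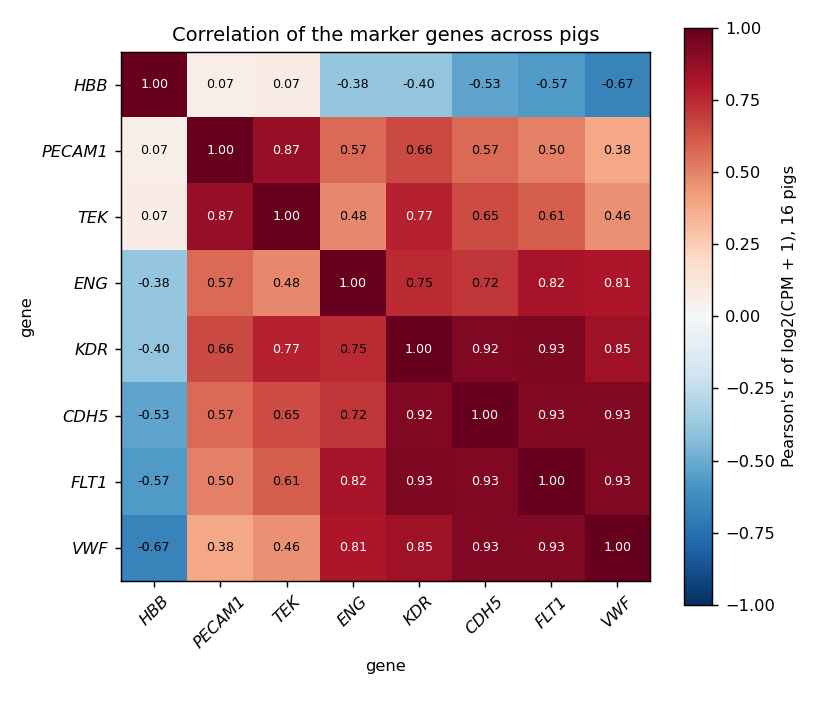
Pearson's r of log2(CPM + 1) over the 16 pigs for each pair of marker genes, red for positive and blue for negative. CDH5, KDR, FLT1 and VWF have r of 0.85 to 0.93 with each other, PECAM1 and TEK have 0.87, and HBB is between -0.67 and 0.07 with the endothelial genes.

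The genes nearest in pattern were sought among the 13613 other tested genes, as a description over the 16 pigs. Nearest to the mean of the 7 endothelial genes were CD93, an endothelial surface receptor (r = 0.94), ADGRF5, an adhesion receptor of endothelium and epithelium (r = 0.92), and PDGFRB, the PDGF receptor of pericytes (r = 0.92). The same 3 genes led for KDR. ADGRF5 was the nearest to CDH5 (r = 0.90, before CECR2 and FAT4) and to FLT1 (r = 0.92, before CD93 and NOTCH2).

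PECAM1 had TMEM204, RHOJ and BCL6B nearest (r of 0.86, 0.85 and 0.85), all known from endothelium. TEK had LOC102157778, ABCC9 and FBLN5 nearest (each r = 0.83), of which ABCC9 is a potassium channel subunit of pericytes and smooth muscle. VWF had SLC12A7, HIVEP2 and LTBP4 nearest (each r = 0.93). ENG had PER3, NID1 and RARG nearest (r of 0.95, 0.94 and 0.93), a clock gene, a basement membrane protein and a retinoic acid receptor.

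Many genes were near to some members. Genes with r of at least 0.8 made up 0.992% of the 13613 for VWF, 0.646% for FLT1 and 0.522% for ENG, but 0.0955% for PECAM1 and 0.0661% for TEK. Those with r of -0.8 or less made up 2.83% for VWF and 0.00735% for PECAM1.

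Expression in each pig also differed with the genomic span of genes. For each pig, the deviation of every gene's log2 CPM from its mean over the pigs was regressed on log2 span, over 10890 genes with a known span, and a higher slope means relatively more counts on long genes. The slope was between -0.08 and 0.04 in the LFC pigs (median -0.01) and between -0.06 and 0.06 in the HFC pigs (median 0.02). Of these genes, 33.4% had r of at least 0.7 in size with the slope, in either direction.

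HBB, with a span of 1653 bp, had r = -0.76 and rho = -0.70 with the slope. VWF, with 161360 bp, had r = 0.74 and rho = 0.73. Both passed by both measures, with adjusted permutation p-values of 0.0127 for r and 0.026 for rho over 24 relations. FLT1 had r = 0.68 (adjusted permutation p = 0.0302) and rho = 0.59 (0.084). The part of the slope in the negative correlation of HBB with VWF was not tested.

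The order of these values was not the order of the spans. CDH5, with 34423 bp, had r = 0.57 with the slope, whereas TEK, with 115321 bp, had 0.04 and PECAM1, with 86655 bp, had -0.16. KDR and ENG had 0.54 and 0.44, and none of these 5 passed. With the 2 pigs of most extreme slope left out, r was -0.68 for HBB, 0.70 for VWF and 0.59 for FLT1. Within the LFC and the HFC pigs r was -0.62 and -0.84 for HBB, 0.70 and 0.70 for VWF, and 0.90 and 0.49 for FLT1.

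With the slope as a covariate, an alternative chosen after seeing the data, the log2 fold changes were 0.39 for VWF, 0.31 for FLT1, 0.24 for CDH5, 0.20 for ENG, 0.11 for PECAM1, 0.09 for KDR, 0.02 for TEK and -0.78 for HBB. The edgeR adjusted p was 0.999 for each. The number of genes with an unadjusted p up to 0.05 went from 1559 to 650. The part of the slope in the group differences was not tested beyond this fit.

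Libraries were mostly larger in the HFC pigs, with a median of 9.03e+06 counted reads (6010629 to 11794256). In the LFC pigs the median was 7.80e+06 (6258650 to 8402619), so library size differed along with the group. Library size had r = -0.66 and rho = -0.70 with HBB (adjusted permutation p of 0.0305 and 0.026). Within the LFC and the HFC pigs r was -0.38 and -0.66. For the 7 endothelial genes the adjusted p with library size was at least 0.238 by r. The mitochondrial share of counts was 2.09% to 4.21% in the LFC and 2.55% to 5.64% in the HFC pigs, and none of the 8 genes passed with it (adjusted permutation p of at least 0.172 by r). Their part in the HBB values was not tested.

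**Figure D5:**
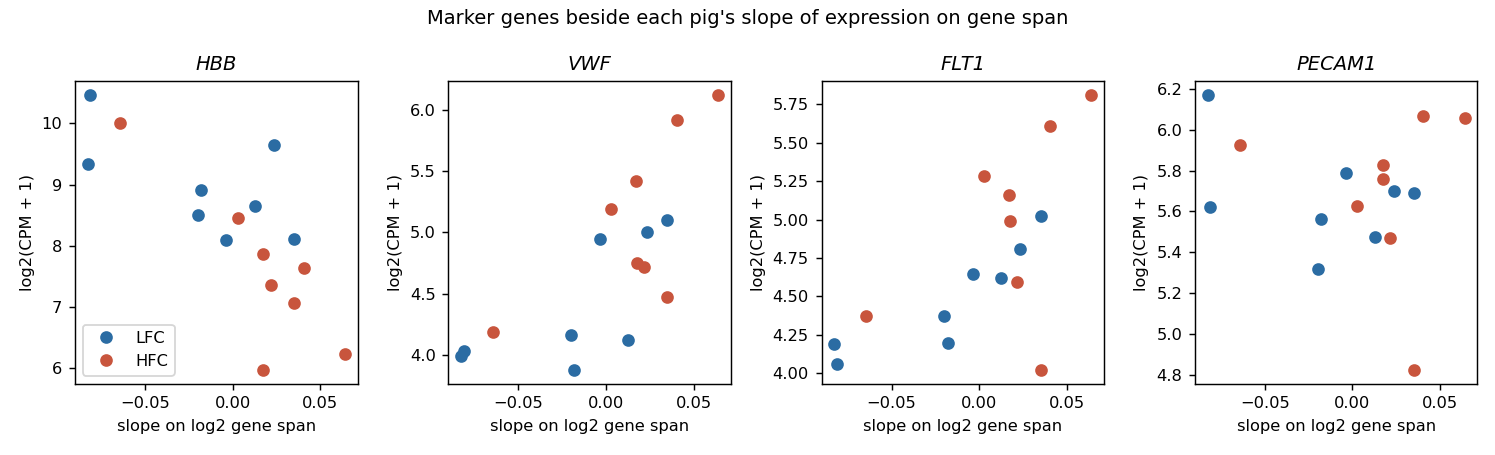
HBB, VWF, FLT1 and PECAM1 against each pig's slope of expression on log2 gene span. The vertical axes give log2(CPM + 1) and each point is 1 pig (LFC blue, HFC red). HBB falls (r = -0.76) and VWF and FLT1 rise (r of 0.74 and 0.68) with the slope, while PECAM1 has r of -0.16.

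Genes of the same pathways and cell types were examined from lists, and in none of them was a gene called by edgeR. DESeq2 called 3 genes of the lists, COL1A2 and PRL (adjusted p of 0.00947 each) and POMC (0.0355), and none of the vascular or blood cell genes. Of all genes tested by edgeR, 7.03% were higher and 4.41% lower in the HFC pigs at an unadjusted p up to 0.05. A positive log2 fold change was found in 47.9%. The counts in the lists below were not tested against these shares. Of 30 other endothelial genes, 26 were matched and 24 tested. With an unadjusted p up to 0.05, 1 was higher and 0 were lower in the HFC pigs, the median log2 fold change was 0.07, and 15 of 24 were positive. The sum of the 26 matched genes was 427 to 577 CPM in the LFC pigs and 323 to 688 CPM in the HFC pigs, so the HFC pigs held both ends of this sum.

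PLVAP, which forms the diaphragms of fenestrated endothelium, was the most counted of these, with 158 ± 30.6 CPM in the LFC and 176 ± 45.8 CPM in the HFC pigs (SD, n = 8 each). PODXL, the sialomucin podocalyxin, was the 1 gene past the unadjusted p, with 25.9 ± 5.73 and 33.3 ± 7.43 CPM. CLEC14A, a lectin of the endothelial surface, had 16.9 and 13.7 CPM. Over the 24 genes the median r was 0.57 with PECAM1, 0.51 with TEK, 0.51 with CDH5, 0.40 with VWF and -0.10 with HBB.

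None of the 13 tested ligands, partner receptors and regulators of the VEGF and angiopoietin pathways passed an unadjusted p of 0.05. VEGFA, the ligand of KDR and FLT1, had 56.2 ± 7.06 CPM in the LFC and 58.2 ± 16.3 CPM in the HFC pigs (SD, n = 8 each). ANGPT1, the activating ligand of TEK, had 35.3 and 43.9 CPM. HIF1A, the oxygen-regulated factor and the highest of the list, had 112 and 124 CPM. FLT4, the third VEGF receptor, had a log2 fold change of 0.41 and VEGFB one of -0.08, and 10 of the 13 were positive.

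Of 12 tested partners of endoglin in TGF-beta and BMP signalling, 2 were lower in the HFC pigs with an unadjusted p up to 0.05 and 0 higher. Both are ID genes, inhibitors of differentiation that BMP receptors induce through SMAD proteins. ID3 had 116 ± 16.5 CPM in the LFC and 86.0 ± 16.6 CPM in the HFC pigs (SD, n = 8 each), a log2 fold change of -0.43 (edgeR adjusted p = 0.385). ID1, at 17.0 ± 2.89 CPM in LFC (SD, n = 8), had a log2 fold change of -0.50. SMAD1 had 0.12 on that scale and ACVRL1, the receptor that ENG assists, 0.11. BMP10 had no counts.

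Of the 10 adherens junction partners of CDH5, 9 had a positive log2 fold change and 1, AFDN, passed an unadjusted p of 0.05. AFDN (afadin) had 34.8 ± 12.6 and 48.4 ± 12.1 CPM (SD, n = 8 each) and a log2 fold change of 0.48. CTNNB1 (beta-catenin), the highest of them, had 0.11, and JAM3, a junctional adhesion molecule, was the 1 negative gene at -0.22. The 10 tested partners of VWF in haemostasis had 0 genes past an unadjusted p of 0.05. GP9, a subunit of the platelet receptor for VWF, had 3.96 CPM in the LFC and 3.36 CPM in the HFC pigs.

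Cells that lie around vessels were followed by 11 pericyte and smooth muscle genes, 12 macrophage genes and 8 fibroblast and matrix genes. All 14 matched pericyte and smooth muscle genes, with those below the filter, summed to 121 to 176 CPM in the LFC and 86.9 to 283 CPM in the HFC pigs. RGS5 had the highest mean, 39.1 CPM in the LFC and 41.8 CPM in the HFC pigs. NOTCH3, a receptor of vascular smooth muscle, was the 1 gene with an unadjusted p up to 0.05, with a log2 fold change of 0.47, and KCNJ8 had -0.26. Macrophage genes had 11 of 12 negative log2 fold changes and 0 at that p. The highest was C1QB at 79.6 and 64.9 CPM, TYROBP had a log2 fold change of -0.49 and CSF1R one of 0.10.

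Among the fibroblast and matrix genes, COL1A2, a chain of type I collagen, was the 1 gene with an unadjusted p up to 0.05, with a log2 fold change of 0.89, and DCN had -0.11. Their sum was 334 to 632 CPM in the LFC and 379 to 1078 CPM in the HFC pigs. Of 6 hormone genes, PRL was higher (1.27) and POMC and CGA were lower (-1.23 and -0.56) in the HFC pigs at that p. Of 6 glial and posterior lobe genes 0 passed, with log2 fold changes of 0.63 for RAX and -1.32 for MBP. MBP was 110 to 2863 CPM in the LFC and 104 to 1111 CPM in the HFC pigs. The part of these cell types in the values of the marker genes was not tested.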

How the data were processed

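The authors trimmed single-end reads of TruSeq RNA v2 libraries, aligned them to the Sscrofa11.1 assembly and its Ensembl genes (RSEM and STAR are named per the labels) and deposited whole-number counts of reads per gene for 25880 genes in 16 pigs, without normalization. Their deposited comparison table also holds group means, fold changes and p-values, none of which were used; only its symbols and positions were. Groups came from the labels. Members and gene lists were chosen with earlier results of these data known.

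In R 4.3.3, edgeR 4.0.16 was run on the counts of all 16 pigs with TMM scaling, its expression filter, quasi-likelihood F tests without covariates and Benjamini-Hochberg adjustment over 13621 genes. The thresholds for a call were an adjusted p of 0.05 and a fold change of 1.3. Standard errors came from the F statistic. The edgeR test was also run on simulated counts with 8 pigs per group. It called 91 of 100 genes changed 2-fold, 35 of 100 changed 1.5-fold and 6 of 13421 unchanged genes. The simulation gave every gene the same coefficient of variation and held no library property such as the slope on gene span. It therefore does not give the power in these pigs. The 16 pigs were separate animals, and the common coefficient of variation between them was 0.249. Pigs of a group differed beyond counting error, with a chi-square per degree of freedom of 11.3 to 85.9. Correlations used log2(CPM + 1) with a pseudocount of 1 and 100000 resamples, and within groups were exact (Python 3.11.15, scipy 1.17.1).

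Genes were named by the deposited symbols (9550), a table of Ensembl names (5875) or RefSeq position on the same assembly (449). The text names all 8 members, from each list the gene with the highest mean and the smallest p in each direction, and the 3 genes nearest in pattern to HBB, to each endothelial member and to their mean; some genes of the lists are not reported here. CGA, ID1, VEGFA, ANGPT1, ACVRL1, CD79A, PPBP and MS4A1, and the genes at 0, were named in addition, after their values were seen. The alternatives were DESeq2 1.42.0, RLE and total library scaling, no filter, a replicate block, a pseudocount of 0.1 and each pig left out. Chosen after seeing the data were the slope on gene span as a covariate, leaving out the pig with the highest HBB of each group, and no fold minimum.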

Additional observations from a re-analysis of the deposited data

Results flagged for a closer look

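A test for a pig far from the rest of its group (Dixon's ratio, critical value 0.526 for 8 pigs) was applied to 22 groups of 8, the 2 feed conversion groups in each of the 8 marker genes and the 3 genes nearest to HBB, and 5 were past it. For normally distributed values, chance flags about 1 in 20 groups. The ratio was taken on CPM, where high values stretch the scale, and each of the 5 flags was the highest of its group. It was not taken on log2(CPM + 1), so the flags may depend on the scale. These genes also move together, so the 5 are not independent. HBB was 1410 CPM in LFC replicate 4 and 1030 CPM in HFC replicate 5, each the highest of its group. The libraries of these 2 pigs also stood apart, with the lowest TMM scaling factors of all pigs (0.884 and 0.887). Their slopes on gene span were -0.081 and -0.064, and HFC replicate 5 had the smallest library (6010629 reads). LFC replicate 6, with a slope of -0.083, was not flagged. The part of these library measures in the flags was not tested. In HFC replicate 5, ALAS2 was also far from the other HFC pigs at 12.6 CPM, and so was HBM at 5.07 CPM. ENSSSCG00000007978 was 413 CPM in LFC replicate 7. None of the 7 endothelial genes had a pig past the critical value in either group.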

How the results depend on the processing

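No marker gene was called under any alternative run. With edgeR 0 genes were called under each alternative, and DESeq2 called 30. The main edgeR fit had 1559 genes at an unadjusted p of at most 0.05. That number was 1549 with RLE, 1389 with total library size, 1847 with no filter and 1404 with a replicate block. It was 989 to 3514 with a pig left out, the highest without HFC replicate 5. With each pig left out, 0 genes and 0 members were called, and 5 to 7 of the 8 members were higher in the HFC pigs. Signs changed for PECAM1 and TEK, both with log2 fold changes near 0: PECAM1 without HFC replicate 4 (-0.00027), and TEK without LFC replicate 5 (-0.0052), HFC replicate 1 (-0.073) and HFC replicate 4 (-0.012). The cause was not tested. Their highest values were 0.159 without LFC replicate 6 and 0.155 without HFC replicate 3. Of genes at an unadjusted p of at most 0.05, 61.4% were higher in the HFC pigs with TMM scaling, 65.0% with RLE and 46.0% with total library size, under which VWF had 0.81 and HBB -1.07. Of the 28 pairs of marker genes, 20 had an adjusted permutation p of r up to 0.05 with TMM scaling. The number was 19 with RLE, 24 with total library size and 20 with a pseudocount of 0.1. With total library size, r with KDR was 0.83 for TEK and 0.76 for PECAM1, beside 0.77 and 0.66 with TMM scaling. Pigs of the same replicate number did not vary together (correlations -0.34 to 0.37, and no pig was closest to its own number). With a replicate block, 0 genes were called, 7 members were higher in the HFC pigs, HBB had -1.43 and VWF 0.72. Depth limits the genes with few counts, such as HBM at 1 to 35 counts a pig.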
